A study of Thermothelomyces thermophilus ATCC 42464 with 4 samples.

Results

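The longest continuous stretch of cytosine methylation on each of the 7 chromosomes of the thermophilic filamentous fungus Myceliophthora thermophila was described in the wild-type (WT) strain and in strain ΔlaeA. Mycelium of both strains was sampled after 24 h on glucose, and each strain had 2 bisulfite libraries, 4 in all. Strain ΔlaeA is described in the study's methods as a null strain whose laeA coding region was exchanged for a selection marker cassette, whereas its genotype label calls it a knockdown. The labels do not say whether the 2 libraries of a strain came from separate cultures, so p-values measure only the spread between these libraries, which may be technical. Each library came as a list of cytosines that the authors had called methylated, with methylated and unmethylated read counts. A cytosine in such a list is called listed here. No listed cytosine had fewer than 5 reads or a level under 5%, where the level is methylated reads over all reads. The chromosomes were divided into windows of 1000 bp. A window was occupied when both WT lists held at least 10 cytosines in it, and occupied windows were joined across gaps of at most 1 window. The longest block per chromosome was taken, which gave 7 blocks with 863 windows, 862 of them occupied, of 38747 windows in all and 10464 occupied windows. The numbers of listed cytosines in WT therefore chose these blocks, and the lengths, borders and WT numbers of listed cytosines given below are descriptions.

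Cytosine methylation in filamentous fungi is known best from Neurospora crassa. There the methyltransferase DIM-2 methylates cytosines in every sequence context, guided by heterochromatin protein 1 bound to histone H3 that is trimethylated on a lysine of its tail, and it does so mainly on AT-rich remnants of transposons. LaeA is a putative methyltransferase and a global regulator of secondary metabolism in filamentous fungi. The libraries address whether the loss of laeA changes cytosine methylation. Contexts are called CG, CHG and CHH, with H for A, C or T. Coordinates are 1-based on assembly ASM22609v1, whose chromosomes carry the names used in the lists. The sequence of the blocks was not used here.

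The longest blocks ran without a break of more than 1 window over 69 to 172 kb. The block of chromosome 1 was the longest with 172 windows (6990001 to 7162000), and the next longest block of that chromosome had 163 windows. Chromosome 5 held a block of 156 windows (525001 to 681000) against 109 for its next longest. The block of chromosome 3 had 132 windows (2151001 to 2283000) against 123. The margin was a single window on chromosomes 6 and 4. On chromosome 6 the block of 121 windows (2702001 to 2823000) was followed by a block of 120, and on chromosome 4 a block of 69 windows (1644001 to 1713000) was followed by a block of 68. The block of chromosome 7 had 119 windows (1260001 to 1379000) against 101. The block of chromosome 2 had 94 windows (165001 to 259000) against 72, and it lay near a chromosome end, with its middle at 3.89% of the chromosome. The middles of the other blocks lay between 13.9% and 66.9% of their chromosomes. For scale, the 403 blocks of all chromosomes had a median length of 15 windows, and 28 of them consisted of 1 window.

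The extents were alike in WT and ΔlaeA with few exceptions. When the joining rule was applied to each list on its own, 5 of the 7 blocks had the same first and last window in all 4 libraries. The exceptions were the right ends of the blocks of chromosomes 2 and 3. On chromosome 3 the last window ended at 2283000 in 3 libraries and at 2284000 in ΔlaeA replicate 2. On chromosome 2 the window after the block, 259001 to 260000, held 6 and 13 listed cytosines in WT and 11 and 4 in ΔlaeA, so that it lay on both sides of the threshold in both strains. As a result the block ended at 259000 in WT replicate 1 and ΔlaeA replicate 2, at 260000 in WT replicate 2 and at 343000 in ΔlaeA replicate 1. The single unoccupied window within any block was also on chromosome 2, at 256001 to 257000, with 5 and 9 listed cytosines in WT and 8 and 9 in ΔlaeA. Outside the other ends the neighbouring window held between 0 and 11 listed cytosines in every library. On chromosome 4 the block kept its 69 windows in all 4 lists, but in both ΔlaeA lists another block of 92 windows, at 3428001 to 3520000, was longer.

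Resolved into bins of 100 bp, the borders lay at nearly the same place in both strains. The border was set at the outermost run of bins with at least 5 listed cytosines. In 8 of the 14 the border fell into the same bin in all 4 libraries, and in 13 of 14 it moved by at most 200 bp. The exception was the right border of chromosome 2, which moved by 3000 bp, with positions of 255600 and 258500 in WT and 258600 and 255600 in ΔlaeA. In none of the 14 did both ΔlaeA libraries lie inward of both WT libraries, and in none did both lie outward. Counted from the borders of WT replicate 1, its mean density over the 14 borders was 8.86 listed cytosines per kb in the last 250 bp outside, 164 in the first 250 bp inside and 232 in the second. Since the number of listed cytosines had set these borders, the step is a description. At the same positions the first 250 bp inside held 169 per kb in WT replicate 2 and 173 and 164 per kb in ΔlaeA.

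**Figure D1:**
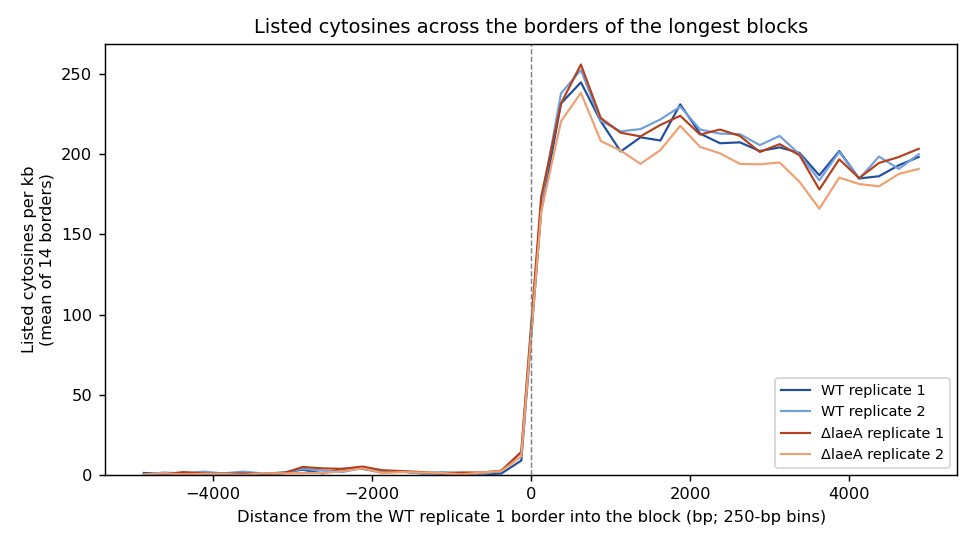
Number of listed cytosines per kb (y axis, mean of the 14 borders in bins of 250 bp) against the distance in bp from the border of WT replicate 1 into the block (x axis), with 1 line per library. All 4 lines stay near 0 outside and stand at 164 to 173 per kb in the first 250 bp inside, and the line of ΔlaeA replicate 2 runs lowest over most of the inner part.

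The blocks held almost no annotated genes, and most of their borders had a gene nearby. Other methylated blocks were not examined for genes, so neither trait is shown to be particular to the longest ones. Genes of the RefSeq annotation covered 0.312% of the blocks (2696 of 863000 bp), against 46.6% of the chromosomes. The gap between a border and the nearest gene edge on its outer side, taken from WT replicate 1, had a median of 557 bp over the 14 borders. It was at most 700 bp at 8 borders and at most 2500 bp at 12. The shortest gap was 62 bp, before MYCTH_2310757 at the right end of the chromosome 6 block. The longest was 87529 bp, between the right border on chromosome 2 and MYCTH_2057467. Across the block windows 9 genes overlapped, 5 of them at an end. The 5 genes at an end, MYCTH_2297841 on chromosome 1, MYCTH_2306286 on chromosome 4, MYCTH_2308016 on chromosome 5, MYCTH_2310757 on chromosome 6 and MYCTH_2316515 on chromosome 7, held between 0 and 4 listed cytosines in any library, none of them listed in all 4. The nearest genes beyond the blocks likewise held 0 to 4, among them MYCTH_2089545 after the chromosome 1 block.

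The 4 genes that lay wholly inside a block were short, of 153 to 276 bp, and carried listed cytosines in every library. All 4 are annotated as protein coding. MYCTH_2059724 (chromosome 2, 231749 to 231958) is named an RNA-directed DNA polymerase, the reverse transcriptase of retroelements, in the study's supplementary gene list. It held 39 and 39 listed cytosines in WT and 35 and 38 in ΔlaeA, at levels of 14.8% and 13.4% in WT and 13% and 13.4% in ΔlaeA. MYCTH_2062716 (chromosome 3, 2217785 to 2218060) held 44, 40, 44 and 44 listed cytosines in the same order of libraries. MYCTH_2028839 (chromosome 4, 1665589 to 1665741) held 35, 37, 33 and 37, and MYCTH_2026083 (chromosome 5, 599057 to 599260) held 38, 40, 42 and 40. The levels of listed cytosines in these 3 genes lay between 11.2% and 14%. The WT and ΔlaeA libraries overlapped in level for each of the 4 genes.

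Within the blocks methylation was dense in number and low in level. Both strands together listed 219651 cytosines in at least 1 library, or between 242 and 271 per kb in the 7 blocks, and 104829 of them (47.7%) were listed in all 4 libraries. The share listed in all 4 was 50.6% in the other occupied windows. The minus strand held 48.6% to 51.1% of the cytosines of a block. Listed cytosines alone showed that at least 25.4% to 28.4% of the bases of a block were G or C, which is a lower limit, since cytosines that were not listed are unknown. CHH cytosines made up 73.0% of the listed cytosines in the chromosome 1 block and 81.4% in the chromosome 2 block, the extremes of the 7. The same blocks were the extremes for CG, with 16.9% on chromosome 1 and 11.2% on chromosome 2.

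Depth sets the precision of these values. Reads at listed cytosines of the whole genome numbered 88818528 to 120404391 per library with a median depth of 47 to 59 reads, and ΔlaeA replicate 2 was the shallowest. Inside the 7 blocks the reads numbered 9457816 and 10105565 in WT and 9613082 and 7503955 in ΔlaeA. A pooled level therefore had a narrow interval by counting alone, such as 13.4% to 13.5% (Wilson 95% interval) for the chromosome 1 block in WT replicate 1. Such intervals cover counting error only. Mean depth in the blocks was above that in other occupied windows by 0.05 on the log2 scale in each library (mean 0.05 ± 0.000993 SD, n = 4, exact sign-flip permutation test, p = 0.125, which is the smallest this test can give with 4 libraries). No more than 0.009% of listed cytosines in the blocks were deeper than 2 times the library median, against 0.06% to 0.066% elsewhere.

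In WT the pooled level of all listed cytosines was 13.4% ± 0.0211 (SD, n = 2) over the 7 blocks. CG cytosines had the lowest level at 11% ± 0.00797, while CHG stood at 13.9% ± 0.0623 and CHH at 13.7% ± 0.0369 (SD, n = 2 each). Both WT libraries gave the same order of contexts. The blocks differed from each other by more than the libraries did. The chromosome 4 block was the most methylated with 14.9% in both WT libraries, and the chromosome 2 block came next with 14.4% and 14.3%. The chromosome 6 block was the least methylated with 12.5% and 12.5%, just below the chromosome 5 block with 12.7% and 12.7%. The chromosome 3 block had 13.6% and 13.6%. The blocks of chromosome 1 (13.4% and 13.4%) and chromosome 7 (13.3% and 13.3%) stood between these and were nearly as close to each other as the libraries of a block were. In the ΔlaeA libraries the 2 most methylated and the 2 least methylated blocks were the same.

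Compared with other occupied windows, the longest blocks had lower levels of listed cytosines in all 4 libraries. The difference was -1.42, -1.41, -1.35 and -1.20 percentage points in WT replicates 1 and 2 and ΔlaeA replicates 1 and 2 (mean -1.34 ± 0.099 SD, n = 4, exact sign-flip permutation test, p = 0.125, the smallest possible value). By context it was -1.15 points for CG, -1.42 for CHG and -1.36 for CHH, negative in 4 of 4 libraries each. Cytosines with a level above 20% made up 18.5% and 18.4% of listed cytosines in WT, against 24.2% and 24.1% elsewhere. Against the 168 other blocks of at least 20 windows the level difference was -0.66 points. Shorter blocks had higher levels. At cytosines listed in all 4 libraries, the mean WT level of tested windows was 29.1% in other blocks of 1 to 3 windows and 20.2% in those of 4 to 19. It was 15.8% in the 29 other blocks of 69 to 163 windows and 15.9% in the longest blocks, which were thus not lower than the blocks nearest in length.

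The level also differed by the position of a window in its block, and on average it was highest in the 2 outermost windows. Averaged over the 4 libraries, the level of listed cytosines in the longest blocks was 17.4% in the terminal window, 19.2% in the second window, 15.1% in windows 3 to 5, 13.8% in windows 6 to 10, 13.2% in windows 11 to 20 and 13.1% beyond 20 windows. The outer 5 windows at both ends exceeded the inner windows by 3.20 and 3.06 points in WT and 2.90 and 2.83 points in ΔlaeA (mean 3.0 ± 0.168 SD, n = 4, higher in 4 of 4 libraries, exact sign-flip permutation test, p = 0.125). The outer windows lay above the inner ones in each of the 7 blocks in 4 of 4 libraries, but single terminal windows did not. The right terminal window of chromosome 2 had 6.75% to 7.59% against 14% to 14.2% in the inner windows of that block, and that of chromosome 7 had 8.48% to 10.6% against 13.2% to 13.6%. The left terminal window of chromosome 1 lay below the inner windows in 3 of 4 libraries, and the right one of chromosome 6 in ΔlaeA replicate 2. In CG, CHG and CHH the difference between outer and inner windows was 2.59, 2.62 and 3.03 points. Beyond 20 windows the longest blocks were slightly above the other large blocks, by 0.21 ± 0.028 points (SD, n = 4, 4 of 4 libraries), whereas they were below them at each of the 5 positions nearer to an end, by 0.128 to 1.30 points in the means and in 4 of 4 libraries each. Windows beyond 20 made up 67.6% of the windows of the longest blocks and 27.8% of those of the other large blocks. The second window also differed in its mix of contexts: CHG cytosines were 5.61% of its listed cytosines in WT replicate 1, against 10.3% beyond 20 windows. Its mean depth at listed cytosines, relative to the library median, was 0.943 and 0.915 in WT and 0.942 and 0.868 in ΔlaeA. Beyond 20 windows these values were 1.06 and 1.04 in WT and 1.05 and 1.04 in ΔlaeA. Whether depth bears on the level by position was not tested.

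**Figure D2:**
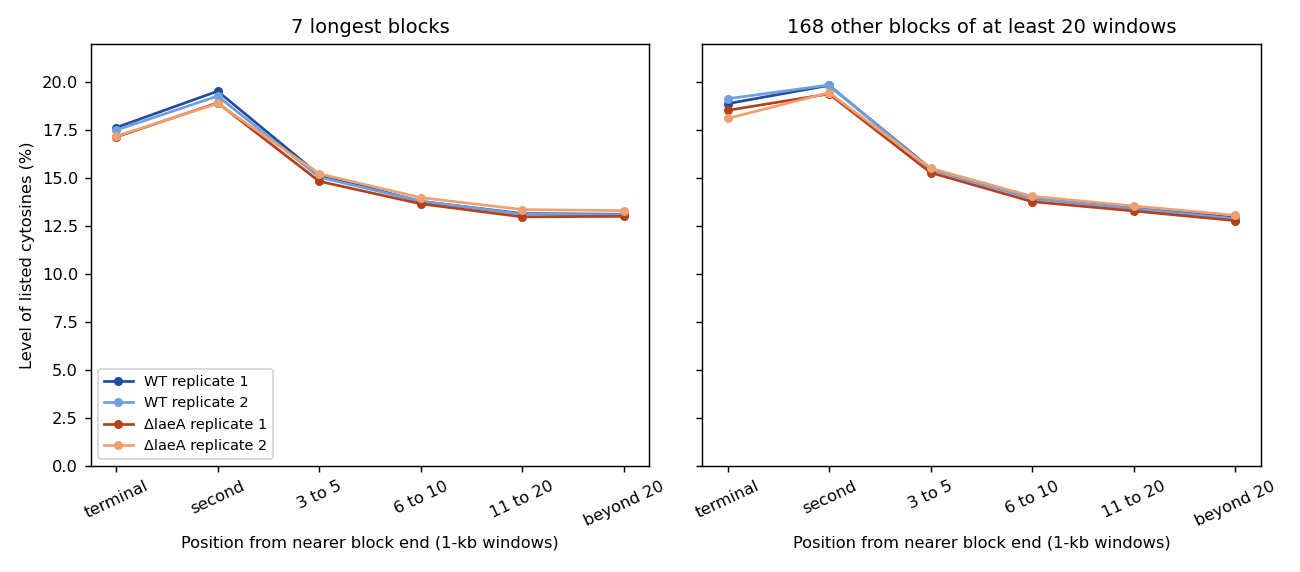
Pooled level of listed cytosines in percent (y axis) by position from the nearer block end in 1-kb windows (x axis) for the 7 longest blocks (left) and the 168 other blocks of at least 20 windows (right), with 1 line per library. In both panels the level peaks in the second window, at 19.2% on average in the longest blocks. On average it falls to its lowest value beyond 20 windows, 13.1% in the longest blocks. The line of ΔlaeA replicate 1 in the longest blocks is lowest in windows 11 to 20, at 12.98% against 13.01% beyond 20 windows.

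For the comparison of strains and of single windows, levels were taken over the cytosines listed in all 4 libraries, which lie higher because weakly methylated cytosines are listed less often. On this scale the blocks had 16.2% ± 0.0447 in WT and 16.0% ± 0.0013 in ΔlaeA (SD, n = 2 each). Of the 863 windows, 854 held at least 10 such cytosines and 10 methylated reads, and of the 9 others 6 were on chromosome 2 and 3 on chromosome 3. WT levels of the 854 windows had a median of 15.5%, with 5% of them under 13.1% and 5% above 20.8%. Window levels were alike between libraries. Across the windows of a block, the levels of WT replicate 1 and 2 had a Pearson correlation of 0.846 to 0.957 in the 7 blocks. Between a WT and a ΔlaeA library it was 0.776 to 0.946. These windows share their libraries and their sequence and are no independent replicates.

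The most methylated windows of the 7 blocks lay within the outer 2 windows on 6 chromosomes. The highest level of all was on chromosome 4 at 1711001 to 1712000, the second window from the right end, with 33.2% and 34.0% in WT and 36.0% and 33.6% in ΔlaeA. On chromosome 1 it was the second window from the left end (6991001 to 6992000), with 30.03% and 29.4% in WT and 29.8% and 27.7% in ΔlaeA. The chromosome 2 block began with its most methylated window (165001 to 166000), with 29.2% and 29.6% in WT and 29.1% and 25.3% in ΔlaeA. The strains overlapped in the windows of chromosomes 4 and 1, and on chromosome 2 both ΔlaeA values lay below both WT values, though the window was not called (adjusted p = 0.318). Chromosome 6 peaked in its second window (2703001 to 2704000) at 28.7% in the WT mean, chromosome 5 in its first (525001 to 526000) at 24.9% and chromosome 7 in its first (1260001 to 1261000) at 23.5%. The exception was chromosome 3, where the peak lay inside the block at 2166001 to 2167000, with 25.9% and 24.9% in WT and 26.6% and 22.9% in ΔlaeA.

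The interiors were not uniform. Among 787 tested windows inside the outer 5 windows, 36 had a WT level above 20%. Chromosome 2 held 13 of them and reached 24.4% at 211001 to 212000. Chromosome 3 held 8, chromosome 4 held 6, chromosome 7 held 5 and chromosome 5 held 4. Chromosomes 1 and 6 had no such window and reached no more than 19.1% and 18.4%. The lowest WT level was 12.7% on chromosome 1, at 7107001 to 7108000. Over the 7 blocks the lowest levels ranged from 9.11% on chromosome 2 (249001 to 250000, 9.91% and 8.30% in WT, 10.8% and 11.1% in ΔlaeA) to 13.2% on chromosome 4 (1662001 to 1663000). On chromosome 7 the lowest level was in the terminal right window (1378001 to 1379000, 11.6%). On chromosomes 3, 5 and 6 it lay at 2213001 to 2214000 (12.0%), 641001 to 642000 (11.8%) and 2806001 to 2807000 (12.9%).

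**Figure D3:**
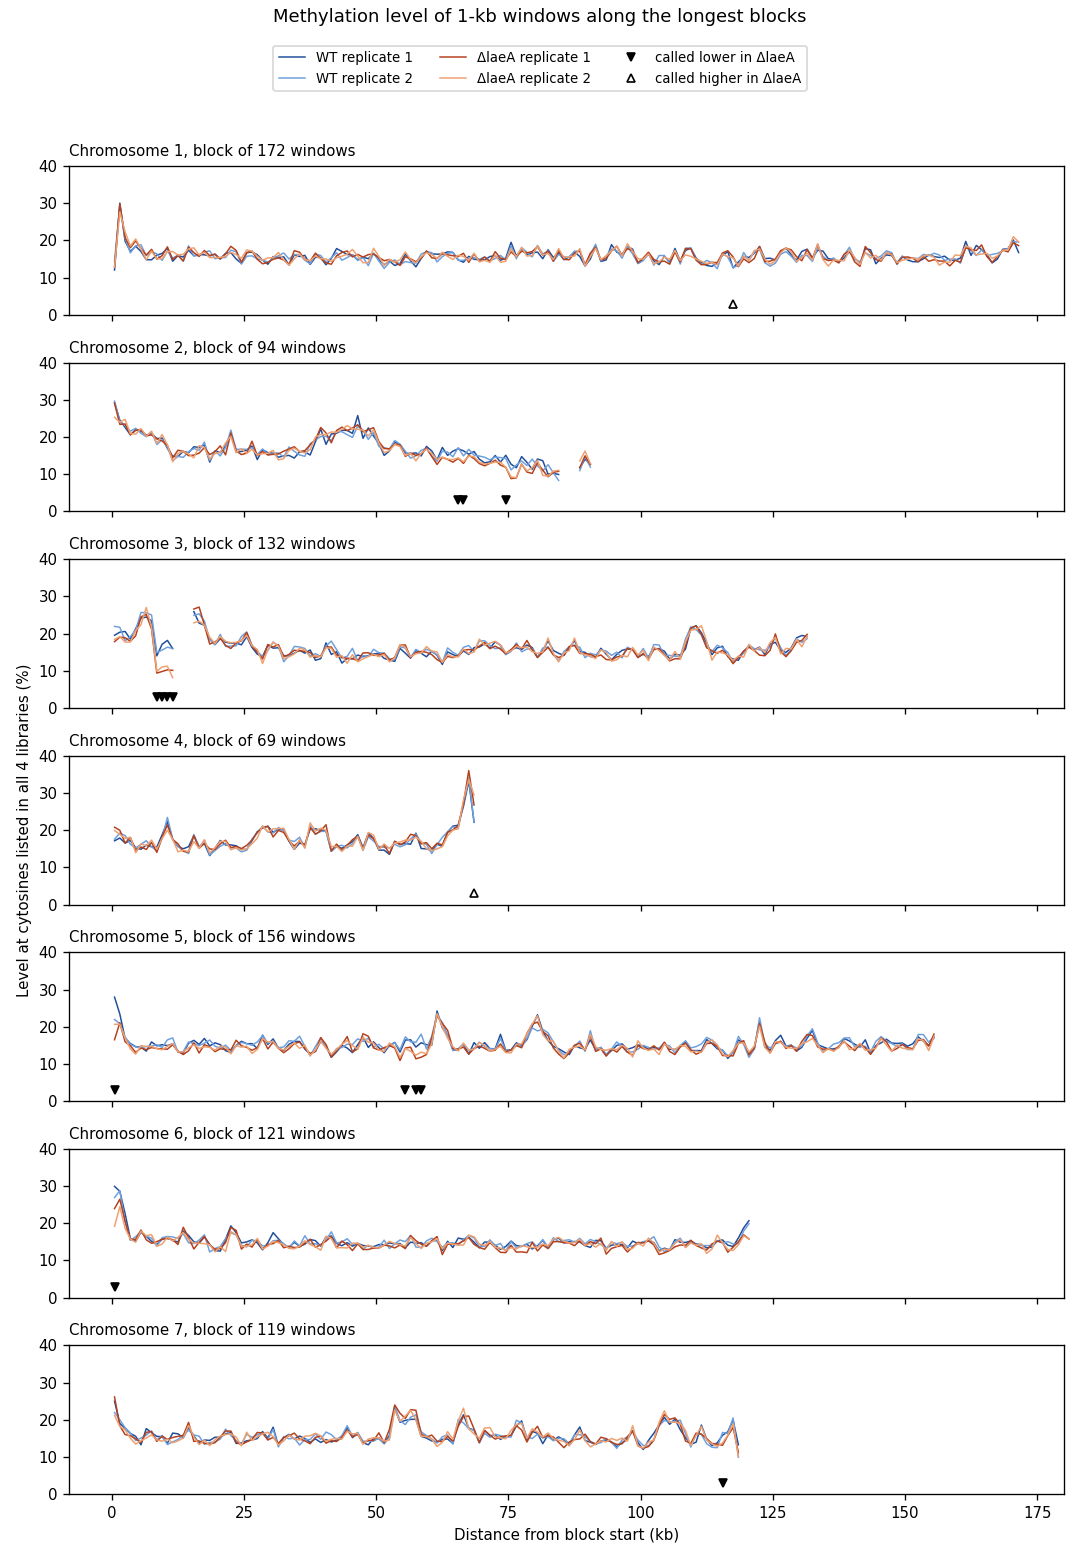
Level in percent at cytosines listed in all 4 libraries (y axis) in each tested 1-kb window against the distance in kb from the block start (x axis), with 1 panel per block, 1 line per library and triangles at the 15 windows past the test of the strain difference (filled, lower in ΔlaeA; open, higher). The 4 lines run together over nearly the whole length of each block, rise at most block ends, and separate by strain near the start of the chromosome 3 block.

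Between the strains the level changed little in any block. The test was the quasi-likelihood F-test of edgeR, applied to methylated and unmethylated reads, with Benjamini-Hochberg adjustment over all 388 blocks tested. It called 3 of the 7 blocks, all lower in ΔlaeA, while 50% of all blocks tested were called, 45.1% lower and 4.9% higher. The chromosome 5 block had 15.4% and 15.5% in WT and 14.9% and 15% in ΔlaeA, and its level fell by 0.51 points (adjusted p = 0.000619). The chromosome 6 block had 15.1% and 15.2% in WT and 14.6% and 14.7% in ΔlaeA, and fell by 0.486 points (adjusted p = 0.000634). The chromosome 3 block had 16.4% and 16.6% in WT and 16.1% and 16.2% in ΔlaeA, and fell by 0.362 points (adjusted p = 0.0105). In these 3 blocks both ΔlaeA libraries lay below both WT libraries, as they also did in the chromosome 2 block, which was not called. Of the 388 blocks tested, 318 had a lower mean level in ΔlaeA.

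The other 4 blocks did not pass the test. The chromosome 2 block had 17.4% and 17.4% in WT and 17.2% and 17.1% in ΔlaeA, a difference of -0.22 points (adjusted p = 0.0708). The difference was +0.08 points on chromosome 1 (adjusted p = 0.285), +0.06 points on chromosome 4 (adjusted p = 0.614) and +0.08 points on chromosome 7 (adjusted p = 0.38). On chromosomes 1 and 7 both ΔlaeA libraries lay above both WT libraries, and on chromosome 4 the strains overlapped. The median difference of all 388 blocks was -0.66 points, further from 0 than that of any of the 7. The 3 calls were lost when the quasi-likelihood dispersion was fitted without its trend on abundance (adjusted p = 0.0527 to 0.158), and when every listed cytosine of each library was counted (adjusted p = 0.539 to 0.988). With the overall level of each library as an offset the same 3 blocks were not called, and the blocks of chromosomes 1, 4 and 7 were called higher relative to the libraries' overall level (adjusted p = 0.00232, 0.00466 and 0.00545). The chromosome 3 call was also lost without WT replicate 2 (adjusted p = 0.149), and the chromosome 2 block was called without ΔlaeA replicate 1 (adjusted p = 0.0267).

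**Figure D4:**
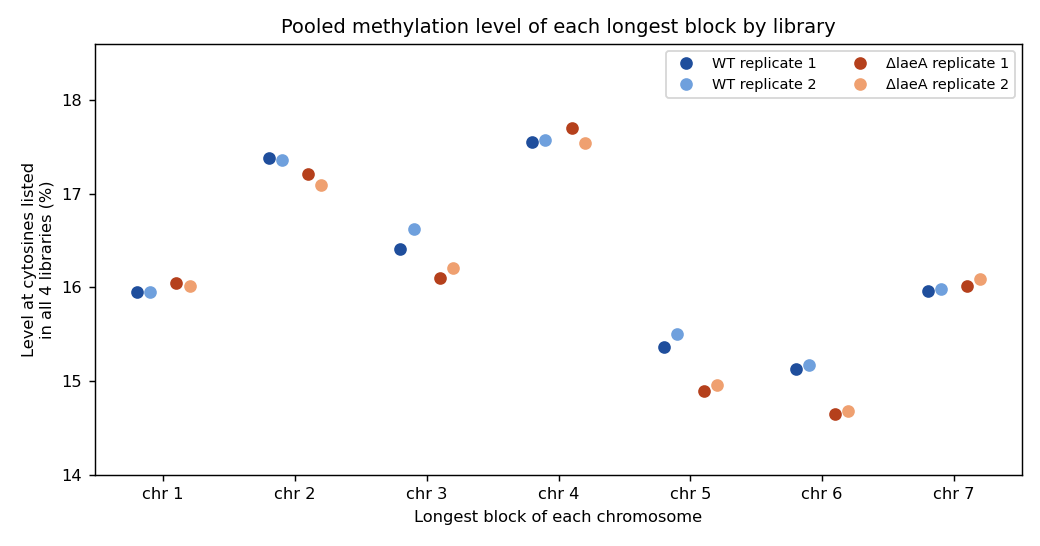
Pooled level in percent at cytosines listed in all 4 libraries (y axis, which starts at 14%) for the longest block of each chromosome (x axis), with 1 point per library. The ΔlaeA points lie below the WT points on chromosomes 2, 3, 5 and 6, by 0.51 points on chromosome 5, and close to them on chromosomes 1, 4 and 7.

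Of the 854 windows tested, 15 were called between the strains at an adjusted p below 0.05, 13 lower and 2 higher in ΔlaeA, and 71 had an unadjusted p below 0.05. Across all 10187 windows tested 4.59% were called, 3.53% lower and 1.06% higher. The median difference of the 854 windows was -0.18 points, against -0.48 over all windows tested. Both ΔlaeA levels lay below both WT levels in 232 windows and above them in 108, together 39.8% of the 854, against 48.1% of all windows tested. The calls depended on the library set: 5 windows were called without WT replicate 2 and 7 without WT replicate 1. The 2 windows called higher were 7107001 to 7108000 on chromosome 1, with 12.6% and 12.7% in WT and 15.6% and 15.3% in ΔlaeA (+2.75 points, adjusted p = 0.0133), and the last window of the chromosome 4 block. The first of these was also the window with the lowest WT level of its block. Without WT replicates 1 and 2, left out in turn, the first was not called (adjusted p = 0.141 and 0.0924), nor was the second (adjusted p = 0.095 and 0.0851).

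The clearest difference lay in the chromosome 3 block, 8 kb from its start. There 4 windows in a row were called lower (2159001 to 2163000), and these 4 stayed called with any 1 library left out. In the window 2159001 to 2160000 the level was 14% and 14.9% in WT and 9.37% and 9.87% in ΔlaeA (adjusted p = 0.000429). In the next it was 17.1% and 15.6% in WT and 9.79% and 11% in ΔlaeA (adjusted p = 4.6e-05). In the window 2161001 to 2162000 it was 18.2% and 16.3% against 10.2% and 11.2% (adjusted p = 1.1e-05). The window 2162001 to 2163000 had the largest fall of the block, from 16.0% and 16.0% in WT to 10.1% and 8.16% in ΔlaeA (-6.83 points, adjusted p = 2.2e-05). Each of these windows had both ΔlaeA libraries at least 4.14 points below both WT libraries.

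The next 3 windows held too few shared cytosines for a test of level. Their numbers of listed cytosines are given as a description, because a minimum number in both WT libraries had chosen the windows. The window 2163001 to 2164000 listed 89 and 75 cytosines in WT and 18 and 26 in ΔlaeA. The window after it listed 83 and 57 against 18 and 14, and the window 2165001 to 2166000 listed 45 and 31 against 9 and 10. Over the whole stretch of 7 windows, whose limits were chosen after the values were seen, 1094 and 1024 cytosines were listed in WT and 598 and 610 in ΔlaeA, 43.0% fewer in the mean. Listed cytosines in CG numbered 195 and 186 in WT and 89 and 107 in ΔlaeA. Those in CHG numbered 197 and 189 against 114 and 113, and those in CHH 702 and 649 against 395 and 390. Mean depth at these cytosines, relative to the mean of each library, was 1.03 and 1.01 in WT and 0.996 and 1.17 in ΔlaeA. Depth at cytosines that were not listed is unknown.

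The windows on either side of the stretch were strongly methylated in both strains. The 3 windows before it had 24.0% and 25.4% in WT and 23.8% and 24.0% in ΔlaeA, and listed 883 and 927 cytosines in WT and 900 and 812 in ΔlaeA. The 3 windows after it had 23.9% and 24.6% in WT and 25.6% and 22.9% in ΔlaeA, and listed 818 and 824 against 868 and 783. The groups overlapped in number on both sides and in level after the stretch. Mean depth at listed cytosines, relative to the mean of each library, was lower on both sides than in the stretch. Before it the values were 0.73 and 0.72 in WT and 0.71 and 0.80 in ΔlaeA. After it they were 0.77 and 0.75 in WT and 0.74 and 0.86 in ΔlaeA. No annotated gene lies in the stretch.

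**Figure D5:**
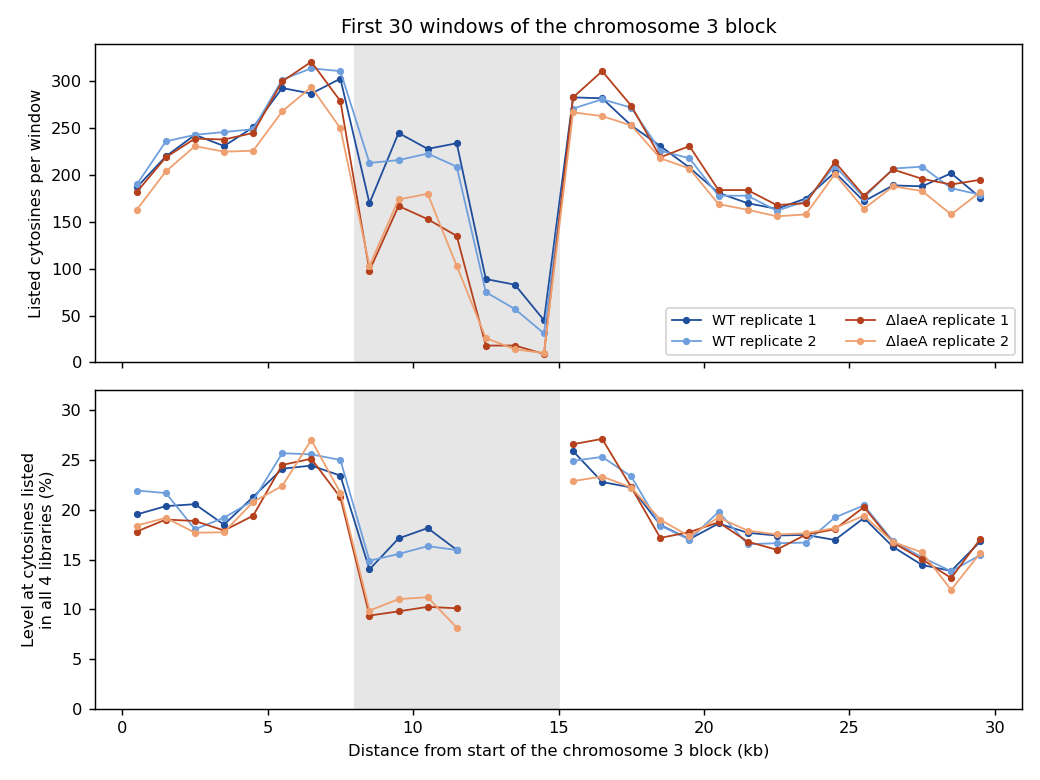
Listed cytosines per 1-kb window (top y axis) and level in percent at cytosines listed in all 4 libraries (bottom y axis) in the first 30 windows of the chromosome 3 block, against the distance in kb from the block start (x axis), with 1 line per library and the stretch of 7 windows shaded; windows with no test have no level. In the shaded windows both WT libraries lie above both ΔlaeA libraries, 1094 and 1024 against 598 and 610 listed cytosines in all, and outside them the lines run together.

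Smaller runs of lower windows stood on chromosomes 5 and 2. On chromosome 5, the windows at 580001, 582001 and 583001 were called, the last with the largest fall of the 3, from 15.7% and 18.0% in WT to 11.8% and 13.2% in ΔlaeA (-4.36 points, adjusted p = 0.00334). The 6 windows from 579001 to 585000 together had 15.4% and 15.8% in WT and 12.7% and 13% in ΔlaeA. They listed 1122 and 1154 cytosines in WT and 1001 and 956 in ΔlaeA. On chromosome 2, the windows at 230001 and 231001 were called, with differences of -2.68 and -2.49 points (adjusted p = 0.0197 and 0.0296), and the latter holds MYCTH_2059724. The called window of that block with the largest fall, 239001 to 240000, went from 15.1% and 14.2% in WT to 11.8% and 11.9% in ΔlaeA (adjusted p = 0.0485). It was followed by 2 windows that fell short of the test, with differences of -2.88 and -3.08 points. These 3 windows listed 352 and 358 cytosines in WT and 249 and 210 in ΔlaeA. Again the limits of both runs were chosen after the values were seen. The single called window of the chromosome 7 block (1375001 to 1376000) had 15.9% and 16.6% in WT and 13.2% and 13.8% in ΔlaeA (adjusted p = 0.0233). In each of these called windows both ΔlaeA levels lay below both WT levels, but the calls changed with the libraries kept. A fit with a library left out has a single library in a strain. In such fits the difference was -3.32 to -2.26 points at 239001 on chromosome 2 and -3.00 to -2.26 at 1375001 on chromosome 7. Without WT replicate 2 none of the called windows of these runs on chromosomes 5 and 2, nor the window of chromosome 7, was called (adjusted p = 0.0535 to 0.248). Without WT replicate 1 the windows at 582001 and 583001 on chromosome 5 were still called and the others were not (adjusted p = 0.0522 to 0.25), and without ΔlaeA replicate 1 the windows at 231001, 239001 and 1375001 were not (adjusted p = 0.146, 0.0914 and 0.13). Without ΔlaeA replicate 2 the window at 580001 was not called (adjusted p = 0.0933).

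At the ends of the longest blocks, 3 of 13 terminal windows tested were called, 2 of them lower in ΔlaeA. Terminal windows were also called elsewhere, mostly lower in ΔlaeA. In the other large blocks 45 of 301 were called, 40 of them lower, and in all other blocks 114 of 668, 97 of them lower. These shares were not compared by a test. The first window of the chromosome 6 block (2702001 to 2703000) had 29.9% and 26.9% in WT and 24.0% and 19.2% in ΔlaeA (-6.86 points, adjusted p = 0.0324). The first window of the chromosome 5 block, which had the highest WT level of that block, went from 28.0% and 21.9% in WT to 16.5% and 20.6% in ΔlaeA (-6.37 points, adjusted p = 0.0254). In contrast, the last window of the chromosome 4 block (1712001 to 1713000) had 22.1% and 22.2% in WT and 26.8% and 29.4% in ΔlaeA (+5.94 points, adjusted p = 0.0253). These windows held only 31 to 38 shared cytosines, and none was called without WT replicate 1 (adjusted p = 0.264, 0.279 and 0.095 in the order given). Without WT replicate 2 the windows of chromosomes 6 and 4 were not called (adjusted p = 0.0535 and 0.0851), without ΔlaeA replicate 1 that of chromosome 5 was not (adjusted p = 0.203), and without ΔlaeA replicate 2 those of chromosomes 6 and 4 were not (adjusted p = 0.159 and 0.182).

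The difference between strains in the longest blocks was smallest beyond 20 windows from the nearer end. Mean ΔlaeA minus WT differences were -0.98 points in the terminal and in the second window, -0.40 in windows 3 to 5, -0.30 in windows 6 to 10, -0.46 in windows 11 to 20 and -0.15 beyond 20 windows. In the other large blocks the corresponding means were -1.22, -1.14, -0.52, -0.46, -0.38 and -0.29. The medians in the longest blocks were -0.46, -1.23, -0.62, -0.17, -0.32 and -0.098 in the same order of positions, with only 13 tested windows at each of the first 2 positions. Across all other blocks, grouped by length, the median difference of their windows was -1.52 points in blocks of 1 to 3 windows, -0.93 in 4 to 19, -0.55 in 20 to 39, -0.51 in 40 to 68 and -0.33 in 69 to 163. The longest blocks, with -0.18 points, continued this order. These are descriptions without a test. WT levels moved in the same order among the other blocks, from 29.1% in blocks of 1 to 3 windows to 15.8% in those of 69 to 163 windows. The longest blocks did not continue that fall, with a WT level of 15.9%.

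The number of listed cytosines per window is given as a description only, because a minimum number in both WT libraries had chosen the windows, which favours fewer in ΔlaeA. Nothing is read from the counts or from their direction. At an adjusted p below 0.05 by edgeR's quasi-likelihood F-test, 9 of 862 windows passed, all with fewer listed cytosines in ΔlaeA, while 1.65% of the 10529 windows tested were called, 0.997% with fewer and 0.655% with more. All 7 windows of the chromosome 3 stretch were among the 9, and the others were 240001 to 241000 and 241001 to 242000 on chromosome 2. The limits of both runs were chosen after the values were seen, so this match carries no weight. No such call fell on the other 5 blocks. Without ΔlaeA replicate 1 the number called was 5, by DESeq2 it was 4, and with no minimum of listed cytosines it was 0, with 22 windows at an unadjusted p below 0.05. Over whole blocks the listed cytosines per kb were 191 ± 1.86 in WT and 185 ± 7.38 in ΔlaeA (SD, n = 2 each), with 191 and 180.2 per kb in the individual ΔlaeA libraries, and the strains overlapped. The lower of these was ΔlaeA replicate 2, the shallowest library.

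Cytosines on opposite strands of a CG or CHG site were often listed singly. In WT replicate 1, 47.2% of listed CG cytosines and 48.9% of listed CHG cytosines of the blocks had their opposite-strand partner listed as well, against 52.5% and 50.01% in the other occupied windows. For comparison, 71.6% of the listed CG cytosines and 83.8% of the listed CHG cytosines of the blocks were listed again in WT replicate 2.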

How the data were processed

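Genomic DNA of mycelium from strains WT and ΔlaeA (2 libraries each) was bisulfite treated with unmethylated lambda DNA added and sequenced with paired ends. The submitters' processing notes name FastQC 0.11.5 and Bismark 0.16.3. The thresholds of the calling and the genome build are not given in the sources used here. The authors deposited per library the methylated and unmethylated read counts of called cytosines, the level as a fraction, and a p-value and adjusted p-value of each call, none above 0.01. The fraction equalled methylated over all reads. Since the lists hold called cytosines only, every level lies above that of all cytosines. A table of the authors' own comparison of regions (strain means, differences and statistics) was not used. Every column of per-sample values was mapped. The blocks, lists and tests were chosen with earlier results of these data known.

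Levels were sums of methylated reads over sums of all reads. Tests of strain differences used edgeR 4.0.16 under R 4.3.3 (quasi-likelihood F-test, negative binomial dispersion without a trend, quasi-likelihood dispersion with its default trend on abundance, adjusted over all windows or blocks) on cytosines listed in all 4 libraries, for regions with at least 10 such cytosines and 10 methylated reads. Numbers of listed cytosines were fitted with edgeR after TMM scaling, as a description, since those of WT chose the windows. DESeq2 1.42.0 was an alternative. Exact permutation tests were two-sided. With 2 libraries against 2 the smallest p is 0.333, so differences of single values between strains could not pass 0.05 by that test. The tests were checked on simulated data, in which the spread between libraries was set by hand. For window levels, 31% of 100 smaller changes and 99% of 100 larger ones were called, with 0 false calls. For numbers of listed cytosines, 97% of 200 changes of 2-fold were called, with 9 false calls. A window that was not called may therefore still have changed. Windows named in the text were, per block, the called ones with the largest fall and rise and those with the lowest and highest WT level. The other called windows and the runs of windows were named after their values were seen. All annotated genes in a block and the nearest ones outside were examined. Gene positions came from a RefSeq table of 9292 genes without strand. Sequences are not shown, since no genome was used here.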

Additional observations from a re-analysis of the deposited data

How the results depend on the processing

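Alternatives covered the test, the cytosines counted, depth limits, the definition of a block and each library left out. One alternative, the fit without an abundance trend of the quasi-likelihood dispersion, was chosen after seeing the data. The 15 windows called became 6 with all listed cytosines of each library, 201 by Fisher's exact test on pooled reads (3638 of all windows tested) and 0 by a quasi-binomial model per window (53 at an unadjusted p below 0.05), and 5 to 19 with a library left out. They numbered 12 to 18 in the other settings, 18 without the abundance trend. The 4 called windows on chromosome 3 were called in 13 of 14 settings, all but the quasi-binomial model. The 9 windows with changed numbers of listed cytosines became 4 by DESeq2, 0 when no minimum was set (22 at an unadjusted p below 0.05), 15 with blocks of at least 5 listed cytosines per window and 5 to 7 with a library left out.

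Block differences of the main comparison in points were lost as calls on chromosomes 3, 5 and 6 in several settings. With all listed cytosines they became -0.0026, -0.15 and -0.13 points, and the chromosome 2 difference turned to +0.065. With the library offset, values are log2 odds ratios: +0.055 on chromosome 1, +0.053 on chromosome 4 and +0.055 on chromosome 7, now called, +0.024 on chromosome 2 and +0.0081 on chromosome 3, reversed, and -0.011 on chromosome 5 and -0.0089 on chromosome 6, no longer called. The offset moved the median of all windows from -0.05 to -0.01. Without the abundance trend the differences of -0.36, -0.51 and -0.49 points on chromosomes 3, 5 and 6 were not called, and by the quasi-binomial model those of -0.36 and -0.51 points on chromosomes 3 and 5 were not. Fisher's exact test called the differences of +0.077 on chromosome 1 and -0.22 on chromosome 2. With gaps of 2 windows or with 5 listed cytosines per window another block was longest on chromosome 4, and it was called higher by +0.48 points in both. With 5 listed cytosines the chromosome 2 difference was +0.066 points. With a library left out the differences were +0.071 to +0.095 on chromosome 1, -0.27 to -0.18 on chromosome 2, -0.42 to -0.23 on chromosome 3, +0.002 to +0.12 on chromosome 4, -0.53 to -0.41 on chromosome 5, -0.46 to -0.39 on chromosome 6 and +0.030 to +0.135 on chromosome 7. The causes were not tested.

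The difference from other occupied windows stayed negative in all settings (-1.67 to -0.66 points), as did the excess of the outer windows stay positive (1.84 with 10 windows at each end to 5.25 with 2). Replicate numbers are shared between the strains, but nothing says that they pair the libraries, and the deviations of same-numbered libraries had a correlation of 0.0018 over 10187 windows. A replicate block gave 15 windows, 9 windows with changed numbers of listed cytosines and the same 3 blocks, chromosome 5 at -0.51 points.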
